A study of Mus musculus with 2 samples.

Results

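Levels of 9 genes that are not among the usual tendon markers were followed cell by cell in limb tendons of mouse pups. The genes are Angptl7, Avp, Tdh, Ooep, Aard, Nppc, 1500015O10Rik, Cpxm2 and Cgref1, 9 of the 27998 genes counted. All 9 were chosen by their high levels in the tenocytes of the wild-type library, and their lower levels in the mutant library were known when they were chosen. Differences that repeat this choice are therefore given as descriptions, and with 1 library in each group there was no spread between replicates and no test of any difference.

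Single-cell RNA sequencing was done on tendon cells of pups at P7. There was a wild-type and a mutant library, and each came from the fore- and hindlimb tendons of 2 pups. The mutant pups were Tgfbr2;ScxCre, in which a floxed Tgfbr2, the type II receptor for TGFβ, is deleted by a Cre recombinase driven from Scx. The genotype label of the control reads wild type and another of its labels reads Het, so its exact alleles are not settled here. All mice of the study, controls included, also carried the tendon reporter ScxGFP and the Cre reporter Ai14 Rosa26-tdTomato (RosaT). By the study's own note the count of Scx includes that of ScxGFP, so the Scx classes, bands and ratios used here do not measure endogenous Scx alone. The 3′ count of Tgfbr2 does not show whether the floxed part was deleted, since it was 30.4 CPM in Scx-high cells of the wild-type library and 46.3 CPM in those of the mutant library. CPM here are counts per 1000000 UMIs summed over a class of cells. The wild-type library held 2364 cells with a median of 3866.5 UMIs (molecules counted once each), the mutant library held 2592 cells with a median of 2828, and 2 cell barcodes occurred in both.

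Cells were split by Scx, the gene of the transcription factor scleraxis, after haemoglobin-rich cells and cells with immune, endothelial, mural, neural or muscle markers had been set apart. Scx-high cells held at least 30 Scx UMIs per 10000. There were 1154 of them in the wild-type library (48.8% of its cells) and 219 in the mutant library (8.45%), against 741 and 1903 Scx-low cells. Few cells lay next to this limit: 32 wild-type and 25 mutant cells were between 20 and 30, and 21 and 20 cells were between 30 and 40. In Scx-high cells all 8 genes of the tenocyte list were found in at least 10% of cells in both libraries, as were 7 of the 8 in Scx-low cells, so this share alone does not set the classes apart. The list holds Scx, which defined the class. The summed level of that list in Scx-high cells was 116051 CPM for wild-type and 61198 CPM for mutant cells. Most of this difference lay in Col1a1, a type I collagen gene, at 73905 CPM in wild-type and 21363 CPM in mutant cells. Scx was at 25664 and 28561 CPM and Tnmd at 7487 and 5641 CPM, so the sum does not describe each gene of the list. The mutant Scx-high cells also held more transcripts of 7 peritenon fibroblast markers, 2643 against 337 CPM, with 5 of the 7 in at least 10% of cells against 1, and of 6 muscle markers, 117 against 5.00. They held more of 6 proliferation genes, 581 against 271, and less of 7 hypoxia genes, 221 against 1194, and of 6 fibrocartilage genes, 1151 against 2031. No muscle or proliferation gene was in 10% of cells in either class. The fibrocartilage genes did not move together, with Col2a1 at 118 CPM in mutant against 872 in wild-type cells but Acan at 395 against 248. Immune, endothelial, mural, neural and red blood lists were between 3.94 and 520 in both. The part of these lists in the results below was not tested.

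Tenocytes are the resident fibroblasts of tendon, which build its fibrils of type I collagen. Scleraxis marks them from the first progenitors onward and belongs to the basic helix-loop-helix factors, which bind E-boxes in DNA. Tnmd encodes tenomodulin, a membrane protein of maturing tenocytes, and Col2a1 encodes the collagen of cartilage, also made where tendon meets bone. TGFβ acts through paired type I and type II receptors and the Smad proteins, and is required for tendons to form.

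The members have little in common by name. Of the 9, 6 encode secreted proteins or peptides. Angptl7 encodes an angiopoietin-like protein known from the cornea and the outflow tissue of the eye. Avp encodes the precursor of vasopressin, the antidiuretic hormone of the hypothalamus. Nppc encodes C-type natriuretic peptide, a ligand of the receptor Npr2 that promotes bone growth in the growth plate. 1500015O10Rik is also called Ecrg4 and encodes augurin, Cpxm2 encodes a protein of the metallocarboxypeptidase family, and Cgref1 encodes a protein with EF-hand domains. Of the others, Tdh encodes the mitochondrial L-threonine dehydrogenase known from mouse embryonic stem cells, Ooep encodes a part of the subcortical maternal complex of the oocyte, and Aard encodes a small protein rich in alanine and arginine.

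The genes are spread over 8 chromosomes. On GRCm38, Angptl7 (ENSMUSG00000028989) lies at chr4:148495183-148500460 on the minus strand, within the span of Mtor, which runs the other way. Avp (ENSMUSG00000037727) lies at chr2:130580620-130582554 on the minus strand, 3565 bases from Oxt, the oxytocin gene, with no other counted gene between them. Nppc (ENSMUSG00000026241) lies at chr1:86666291-86670571 on the minus strand and 1500015O10Rik (ENSMUSG00000026051) at chr1:43730602-43742578 on the plus strand. Cpxm2 (ENSMUSG00000030862) lies at chr7:132032687-132154739 on the minus strand, within a long annotated model of Fgfr2 on the same strand, so reads could be split between these genes. Tdh (ENSMUSG00000021953) lies at chr14:63492347-63509092, Ooep (ENSMUSG00000032346) at chr9:78376109-78378725 and Cgref1 (ENSMUSG00000029161) at chr5:30933143-30945591, all on the minus strand, and Aard (ENSMUSG00000068522) at chr15:52040107-52045722 on the plus strand.

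RefSeq promoter entries on GRCm38.p6 were found for 6 of the 9 members. The 250 bases before the start are shown for Angptl7 and Avp, which differed most between the Scx-high cells of both libraries, and for Nppc, which had the highest level relative to wild type in the Scx-low cells of the mutant library. Capitals mark the E-box letters CANNTG, which read the same on both strands. They span chr4:148500463-148500712, chr2:130582589-130582838 and chr1:86670574-86670823, all read from the minus strand.
Angptl7: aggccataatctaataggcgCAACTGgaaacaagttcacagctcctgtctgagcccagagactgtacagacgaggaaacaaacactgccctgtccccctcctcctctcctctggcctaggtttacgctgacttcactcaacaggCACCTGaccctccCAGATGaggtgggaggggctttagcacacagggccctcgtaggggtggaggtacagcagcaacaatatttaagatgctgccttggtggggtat
Avp: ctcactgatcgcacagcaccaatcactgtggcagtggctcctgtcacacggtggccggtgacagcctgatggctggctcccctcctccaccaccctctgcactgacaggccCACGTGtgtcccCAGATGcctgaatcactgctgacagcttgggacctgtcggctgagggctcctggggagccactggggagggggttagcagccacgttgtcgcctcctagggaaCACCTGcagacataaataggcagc
Nppc: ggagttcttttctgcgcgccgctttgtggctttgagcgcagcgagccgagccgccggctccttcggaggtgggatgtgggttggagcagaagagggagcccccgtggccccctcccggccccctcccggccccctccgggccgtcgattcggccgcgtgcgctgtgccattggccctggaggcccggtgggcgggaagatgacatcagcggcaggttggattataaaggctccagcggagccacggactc
The windows of Angptl7 and Avp each hold 3 matches and that of Nppc holds 0. Of all 32851 promoter windows of this length, 66.2% hold at least 1 match and 12.2% hold 3 or more, so a match describes the letters only.

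In the wild-type library the 9 genes covered more than 2 orders of magnitude. CPM of 3′ UMI counts need no correction for gene length. 1500015O10Rik reached 7379 CPM in Scx-high cells and was the 10th most abundant of the 14294 genes found there, next to Tnmd at 7487 CPM. Cpxm2 at 644 CPM and Cgref1 at 522 CPM ranked 216 and 270. Angptl7 at 273, Aard at 190, Ooep at 152 and Nppc at 131 CPM ranked between 516 and 958. Tdh at 78.3 CPM and Avp at 54.8 CPM ranked 1504 and 2062. The list therefore holds 1 gene of the same order as the major tendon transcripts and 8 that are far less abundant.

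All 9 were higher in Scx-high than in Scx-low cells of the wild-type library by at least 2-fold, where 4.48% of all genes compared were, but this is the choice of the members seen again. The median log2 ratio of the members was 3.32, and that of all genes compared was -0.45. Tdh was 71.6-fold higher (95% interval 24.3 to 349), Avp 50.1-fold (16.9 to 244), Ooep 37.8-fold (21.0 to 76.0) and Angptl7 31.1-fold (20.8 to 48.8). Intervals here and below cover counting error only. Cgref1, Nppc, Cpxm2 and 1500015O10Rik were between 9.15-fold and 10.01-fold higher, near Col11a1, a fibrillar collagen gene, at 8.67-fold. Aard was 4.60-fold higher (3.78 to 5.65), less than Tnmd at 6.08-fold.

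**Figure D1:**
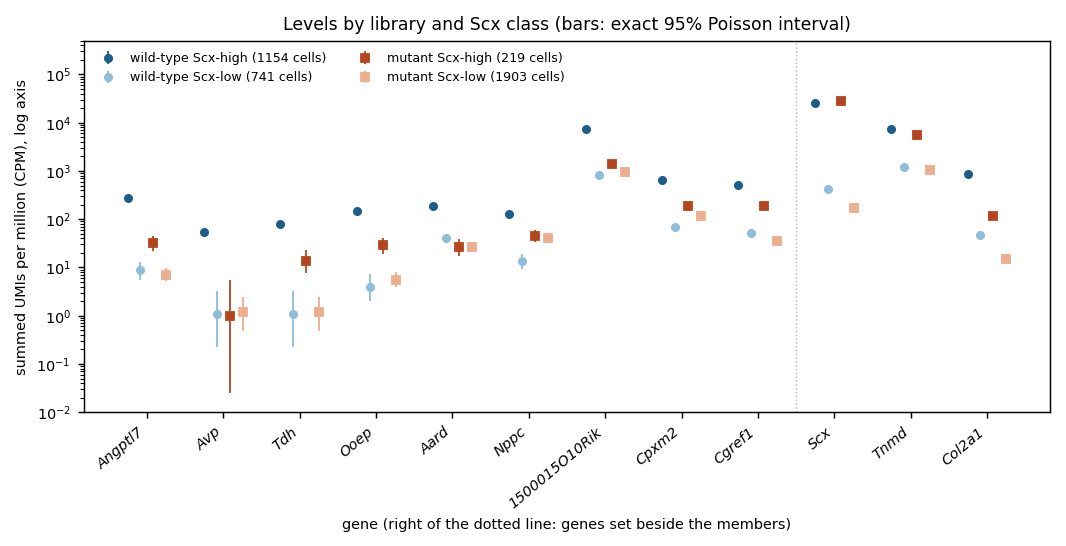
Level of the 9 members and of Scx, Tnmd and Col2a1, as CPM of summed UMIs on a log axis, in the Scx-high and Scx-low cells of both libraries; bars are exact 95% Poisson intervals. Every member was highest in the wild-type Scx-high cells, from 54.8 CPM for Avp to 7379 CPM for 1500015O10Rik, while Scx itself was at 25664 CPM there and at 28561 CPM in the mutant Scx-high cells.

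What the Scx-low cells of the wild-type library held was set beside free RNA, as seen in haemoglobin-rich cells. Those 88 cells held 219 CPM of Scx and 65.4 CPM of 1500015O10Rik at a median of 5682 UMIs per cell, so free tenocyte RNA was present. For each 1000 Scx UMIs there were 299 UMIs of 1500015O10Rik in haemoglobin-rich cells (195 to 448) and 288 in Scx-high cells (284 to 291), but 1875 in Scx-low cells (1746 to 2014). Cpxm2, Cgref1, Aard, Nppc and Angptl7 also exceeded their Scx-high ratio in Scx-low cells, for Cpxm2 with 160 (137 to 187) against 25.1, for Aard with 95.8 (78.2 to 116) against 7.39 and for Angptl7 with 20.3 (13.0 to 30.4) against 10.6. The haemoglobin-rich ratio of Angptl7 was 9.35 (0.234 to 53.2) from 1 UMI, an interval that holds 20.3. Scx-low cells were picked for few Scx UMIs, which by itself raises a ratio to Scx there. That of Tnmd was 2861 in Scx-low and 292 in Scx-high cells. For Nppc, 31.4 (22.0 to 43.5) against 5.11, the haemoglobin-rich cells were as high, with 74.8 (31.5 to 153) from 8 UMIs, 7 of them in 1 cell. For Avp the ratios were 2.54 (0.524 to 7.45) and 2.13, and for Tdh 2.54 and 3.05. Wild-type Scx-low cells held 3 UMIs of each of these genes. Haemoglobin-rich cells held 0 of either, which allows a ratio of up to 35.1. These counts are too few to tell free RNA from low expression. For Ooep the Scx-low ratio of 9.32 (4.64 to 16.7) also reached down to that of Scx-high cells at 5.91.

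Within the wild-type Scx-high cells the members are described by 3 kinds of distribution. The first 2 differ mainly in level, on which the share of cells with a UMI depends. The first kind was general: 1500015O10Rik had a UMI in 98.9% of cells with a median of 30 and up to 89, Cpxm2 in 84.2% and Cgref1 in 75.9%, each with a median of 2. The next kind was found in a minority of cells at 1 or a few UMIs, namely Aard in 44.5%, Ooep in 39.5%, Tdh in 23.5% and Avp in 18.5%. Of the 214 cells with Avp, 177 held a single UMI and 1 held at least 5. The variance over the mean of the UMIs, after each cell was thinned to 1585 UMIs, was 1.05 for Avp, 1.13 for Tdh, 1.202 for Aard and 1.24 for Ooep. A value of 1 is that of molecules spread at random over cells. For 1500015O10Rik, Cpxm2 and Cgref1 it was 2.51, 1.158 and 1.156. No subset of cells is therefore read from the second kind. The value can rise with the mean, which after thinning was 11.7 UMIs for 1500015O10Rik and 0.199 for Nppc. Genes of unlike level are thus not compared by it.

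Angptl7 and Nppc were of the third kind, present in few cells and abundant in some of them. Angptl7 was found in 292 cells (25.3%) and its UMIs ran up to 45 in a cell, with 5 or more in 90 cells and 10 or more in 34. The 48 cells with most of it, 4.16% of the class, held 50% of its UMIs, and the variance over the mean was 3.12. Nppc was found in 25.2% of cells with up to 12 UMIs, 61 cells (5.29%) held 50% of its UMIs, and the variance over the mean was 1.75. By contrast 130 cells were needed for 50% of the Ooep UMIs and 331 cells for 50% of those of 1500015O10Rik.

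**Figure D2:**
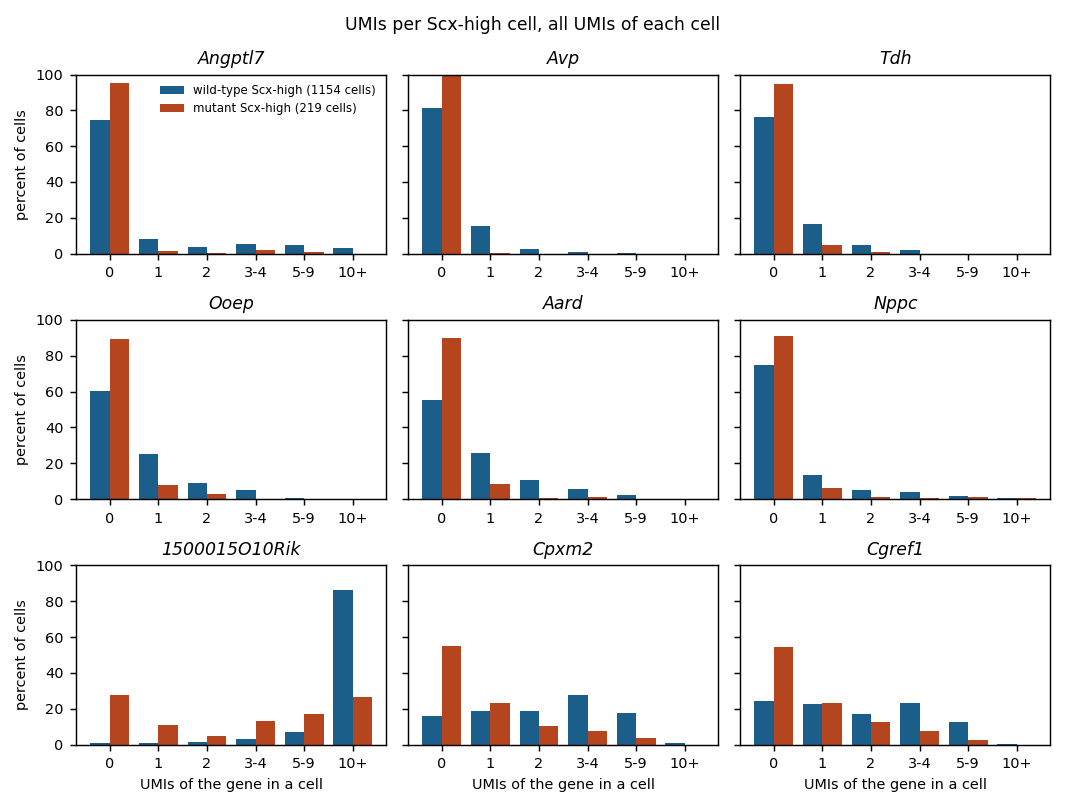
Percent of Scx-high cells by the number of UMIs of each member in a cell, with all UMIs of the cell counted, for 1154 wild-type and 219 mutant cells. 1500015O10Rik peaks at 10 or more UMIs in the wild-type cells, Angptl7 has a tail of 34 wild-type cells at 10 or more, and 0 is the most frequent value in the mutant cells for every member, though for 1500015O10Rik 60 of 219 cells are at 0 and 58 at 10 or more.

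After thinning, a wild-type Scx-high cell showed on average 3.03 of the 9 members, and 65.1% of the 1063 cells kept showed 3 or more. Only 0.941% of them showed 0. At least 1 of the 6 rarer members, all but 1500015O10Rik, Cpxm2 and Cgref1, was found in 61.8% of these cells. Wild-type Scx-low cells showed 0.744 members on average, and haemoglobin-rich cells of that library showed 0.133. Without thinning these averages were 1.14 and 0.364. The red blood list took 957396 CPM of the haemoglobin-rich cells, so thinning left few UMIs of other genes there and the 2 classes are not at equal depth for the members. The average per cell was carried mainly by 1500015O10Rik, Cpxm2 and Cgref1, found in 98.7%, 61.0% and 51.8% of the thinned wild-type Scx-high cells.

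**Figure D3:**
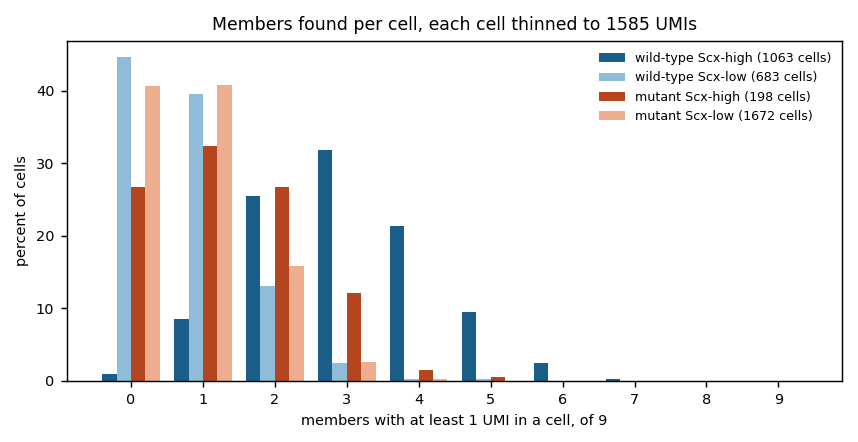
Percent of cells by how many of the 9 members had a UMI, after each cell was thinned to 1585 UMIs, in the 4 classes of cells. The wild-type Scx-high cells centre on 3 members, the mutant Scx-high cells on 1, with 26.8% at 0, and both Scx-low classes lie at 0 or 1 in most cells.

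Along the range of Scx in the wild-type library, Angptl7 was higher in each successive band above the limit. It was at 28.2 CPM (15.0 to 48.2) in cells with 30 to 100 Scx UMIs per 10000, 144 CPM (125 to 165) at 100 to 200, 315 CPM (293 to 339) at 200 to 400 and 589 CPM (530 to 652) at 400 or more. Each step lay outside the interval of the one before. Avp was already at 58.7 CPM at 100 to 200 and stood at 58.5 and 56.5 CPM in the next bands, and Tdh was at 77.1, 88.4 and 82.3 CPM. 1500015O10Rik, Cpxm2 and Aard were also level or slightly lower at the top, with Aard at 208, 191 and 156 CPM. Cgref1 was at 499, 547 and 639 CPM. In cells at 10 to 30 Scx per 10000, just under the limit, 1500015O10Rik was at 2029 CPM, Cpxm2 at 241 and Aard at 101 CPM, while Angptl7 was at 3.59 and Tdh at 3.59 CPM with 1 UMI each and Avp had no UMI.

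From 20 Tnmd UMIs per 10000 up, Angptl7 and Ooep were lower in wild-type Scx-high cells with more Tnmd. Over all 1154 cells the Pearson correlation of their scaled log values with those of Tnmd was weak, at -0.052 and -0.087. Angptl7 was at 354 CPM (320 to 390) in cells with 20 to 50 Tnmd UMIs per 10000, 281 CPM (261 to 302) at 50 to 100 and 158 CPM (133 to 187) at 100 or more. Ooep was at 184 CPM (160 to 211), 156 CPM (141 to 171) and 101 CPM (80.7 to 124) in the same bands. Avp was at 65.8, 55.5 and 39.5 CPM with overlapping intervals. Aard ran the other way, with 163 CPM (140 to 188), 197 CPM (181 to 214) and 206 CPM (177 to 238). Since 99.6% of thinned wild-type Scx-high cells had a UMI of Tnmd, only 4 lacked it, and co-detection with Tnmd could not be compared there.

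Col2a1 was found in 748 of the 1063 thinned wild-type Scx-high cells. Cgref1 was found in 55.2% of cells with Col2a1 (51.6 to 58.8) and in 43.8% of cells without it (38.3 to 49.5), and 1500015O10Rik in 99.7% and 96.2%. Avp was found in 8.82% (6.89 to 11.1) and 5.08% (2.93 to 8.12), and by level in unthinned cells it stood at 15.5 CPM (5.69 to 33.8) in cells with no Col2a1 UMI against 86.4 CPM (53.5 to 132) in cells with 20 or more per 10000. The shares of Avp, Angptl7, Tdh, Aard, Nppc, Ooep and Cpxm2 in cells with and without Col2a1 had overlapping intervals. Angptl7 was highest at intermediate Col2a1, with 330 CPM (303 to 358) at 5 to 10 per 10000 against 109 CPM at 0 and 161 CPM at 20 or more. These cells share 1 library and their Scx level was not held constant.

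Of the 3596 genes found in at least 10% of the wild-type Scx-high cells, those whose scaled log values were most alike to 1500015O10Rik over the 1154 cells were Sparc (r = 0.6996), Col1a2 (0.629) and Col1a1 (0.505), a matrix glycoprotein and the chains of type I collagen. Cpxm2 was closest to Col1a1 (0.337) and Col1a2 (0.336), Cgref1 to Sparc (0.369), and Angptl7 to Scx (0.306). Nppc was closest to Dcn (0.260), a small proteoglycan of the matrix, and Bambi (0.224), a pseudoreceptor of the TGFβ family. For Avp, Tdh, Ooep and Aard the highest r was 0.182 or less, which in counts this sparse is no finding. The cells share a library and a scaling, so the values describe them only.

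In the mutant library, the 219 Scx-high cells held less of every member than the wild-type Scx-high cells. All 9 members were at least 2-fold lower than in wild-type Scx-high cells, where 4.23% of all genes compared were. This contrast was known at the choice of the members, and nothing is read from the count. The median log2 ratio was -2.41 for the members and 0.32 for all genes compared. The typical gene thus took a slightly larger share of the UMIs in the mutant cells. Whether its amount per cell changed was not tested. By summed UMIs Scx, which defines the class, was at 25664 and 28561 CPM, but its median per cell was lower in the mutant cells, 169 against 224 per 10000, with a wider spread. Tnmd was at 7487 and 5641 CPM. Library and genotype cannot be told apart. The paper proposes that cells with ScxGFP signal in P7 mutant tendons are newly recruited, and saw weak or no RosaT in some of them. Whether the mutant Scx-high cells here are such cells was not tested. The contrast is thus between classes and does not show a loss within the same cells.

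Avp was nearly absent, with 263 UMIs in wild-type and 1 UMI in mutant Scx-high cells, a ratio of 55.6 with a counting interval of 9.89 to 2204. Angptl7 was at 273 CPM in wild-type and 31.5 CPM in mutant cells, 8.65-fold lower (6.10 to 12.7). Aard was at 190 and 26.6 CPM, 7.13-fold lower (4.87 to 10.9). Col2a1 was at 872 and 118 CPM, 7.37-fold lower (6.15 to 8.92), with an interval that overlaps those of Angptl7 and Aard.

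Tdh, Ooep and 1500015O10Rik were between 5.24-fold and 5.68-fold lower. Tdh was at 78.3 and 13.8 CPM and Ooep at 152 and 28.6 CPM. 1500015O10Rik was at 7379 and 1410 CPM, and its median was 30 UMIs per wild-type cell and 3 per mutant cell, with no UMI in 60 of the 219 mutant cells and up to 80 in another. Cpxm2 was 3.39-fold lower (2.93 to 3.94), with 644 and 190 CPM, Nppc 2.90-fold (2.14 to 3.996), with 131 and 45.3 CPM, and Cgref1 2.79-fold (2.41 to 3.25), with 522 and 187 CPM. Col1a1 was 3.46-fold lower (3.41 to 3.51), within the interval of Cpxm2, and Col11a1 2.37-fold lower (2.14 to 2.63). Fmod, a proteoglycan gene of mature tendon, was 2.09-fold lower. Acan, the gene of the proteoglycan aggrecan, was at 248 CPM in wild-type and 395 CPM in mutant cells. Col11a1 and Acan were named after their values were seen. The change from library to library was therefore unequal among genes of Scx-high cells.

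Cells of like Scx or Tnmd were also compared, a choice made after the data were seen. The share of all genes past 2-fold was not counted in these cells, and the contrast was known at the choice of the members. The ratios are therefore descriptions, and no count of members is read from them. The first set was 95 mutant and 886 wild-type cells with 100 to 400 Scx UMIs per 10000. In its mutant cells Angptl7 was 5.85-fold lower (3.68 to 9.91) and 1500015O10Rik 4.28-fold (3.98 to 4.60). Cgref1 differed least, at 2.27-fold lower (1.85 to 2.81). Avp had 218 UMIs in these wild-type cells and 0 in the mutant cells. Between cells with at least 50 Tnmd UMIs per 10000, 105 mutant and 852 wild-type, Cgref1 again differed least, at 1.90-fold lower (1.60 to 2.28). In these cells Nppc was 2.19-fold lower and 1500015O10Rik 3.69-fold lower.

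**Figure D4:**
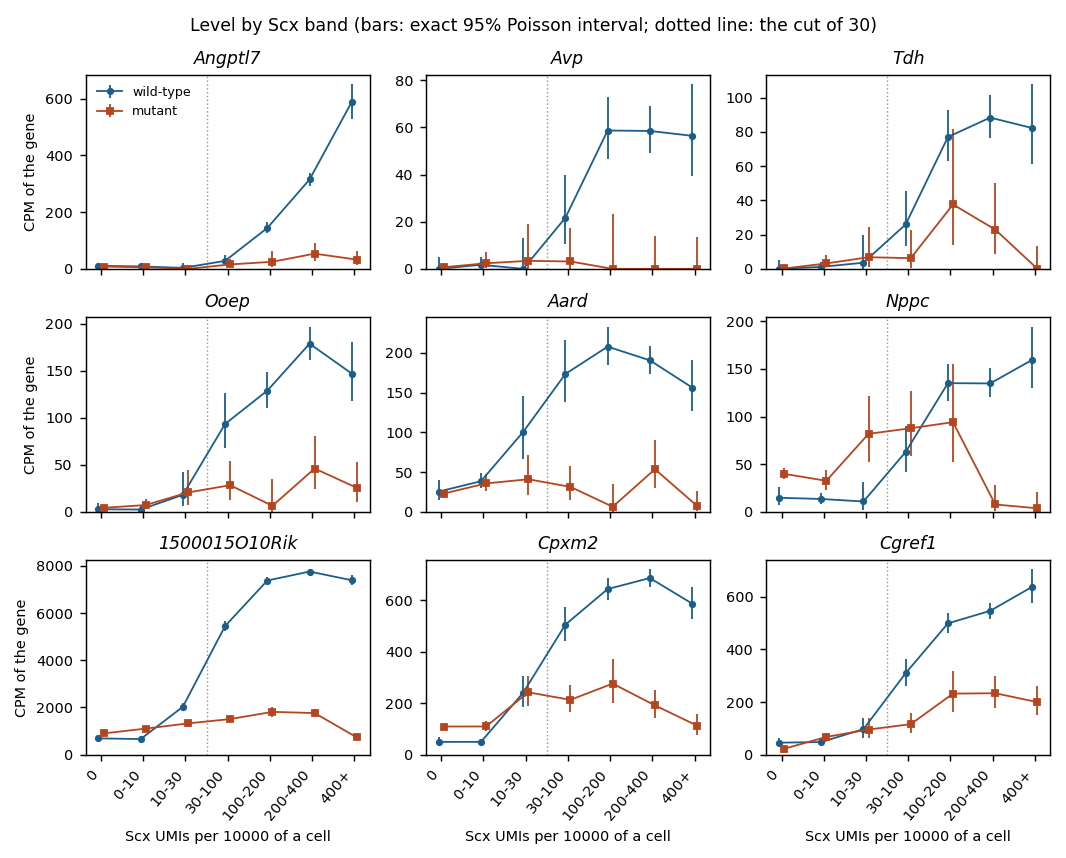
Level of each member in CPM of summed UMIs by the Scx UMIs per 10000 of a cell, for the wild-type and mutant libraries, with exact 95% Poisson intervals and a dotted line at the limit of 30. In the wild-type library Angptl7 runs from 28.2 to 589 CPM over the 4 bands above the limit and 1500015O10Rik is between 7380 and 7761 CPM in the 3 bands above 100; the mutant values stay below the wild-type values in the bands above 200 for all 9 members.

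Within the mutant library, 1500015O10Rik, Cpxm2 and Nppc were lowest in the Scx-high cells with most Scx. 1500015O10Rik was at 1507 CPM at 30 to 100 Scx per 10000, 1813 at 100 to 200, 1761 at 200 to 400 and 730 CPM (632 to 838) at 400 or more, where the 133 wild-type cells held 7391 CPM. Cpxm2 was at 276 CPM at 100 to 200 and 113 CPM (76.5 to 160) at 400 or more. Nppc was at 87.7 CPM (58.3 to 127) at 30 to 100 and 94.1 CPM (52.7 to 155) at 100 to 200, within reach of the wild-type values of 62.9 and 135 CPM, but at 7.66 CPM (0.927 to 27.7) and 3.63 CPM (0.0919 to 20.2) in the 2 bands above. Those 2 bands held 56 and 45 mutant cells, with 2 and 1 UMIs of Nppc. Cgref1 was at 116 CPM at 30 to 100 and at 232, 234 and 200 CPM in the 3 bands above.

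Mutant Scx-high cells with more Tnmd held more 1500015O10Rik and Cgref1. 1500015O10Rik was at 124 CPM (69.6 to 205) in the 27 cells with no Tnmd UMI, 762 CPM at up to 20 per 10000, 1141.5 at 20 to 50, 1948 at 50 to 100 and 2230.4 CPM in the 36 cells at 100 or more. Cgref1 was at 24.9 CPM and 285 CPM at the ends of the same range. After thinning, 1500015O10Rik was found in 73.1% of mutant Scx-high cells with Tnmd (65.7 to 79.6) and in 9.68% of the 31 cells without it (2.04 to 25.8), and Cpxm2 in 25.7% and 3.23%. Cells with Col2a1 stood apart as well: 1500015O10Rik was found in 94.6% of 37 such cells (81.8 to 99.3) and in 55.9% of the 161 others (47.9 to 63.7). Of the 6 rarer members, 5 had each of their thinned positive cells among those with Tnmd, but with 1 to 6 cells for each this is a count only, and Nppc had 11 of 12.

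The few UMIs of Angptl7 and Nppc in mutant Scx-high cells were unevenly spread. Angptl7 had 32 UMIs in 10 of 219 cells, 53.1% of them in 3 cells, and without the 1% of cells richest in it in each class its ratio to wild type was 0.0685 in place of 0.116. Nppc had 46 UMIs in 20 cells, 54.3% of them in 3 cells, and its ratio was 0.190 in place of 0.345. Leaving out these cells was chosen after the data were seen. A thinned mutant Scx-high cell showed 1.31 members on average, 14.1% showed 3 or more and 26.8% showed 0.

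Against the Scx-low cells of the same library, only some members had a higher level in the mutant Scx-high cells. The members were chosen with earlier results of these data known, so this comparison too is a description. Of the 9 members, 7 had enough UMIs to compare, and 3 of these were at least 2-fold higher there, where 5.65% of all genes compared were. These were Cgref1, 5.26-fold higher (4.30 to 6.43), Ooep, 5.08-fold (2.98 to 8.63), and Angptl7, 4.41-fold (2.69 to 7.15). Tdh was 11.6-fold higher (4.37 to 33.9) from 14 and 7 UMIs but lay under the minimum of a mean of 0.05 UMI per cell. Cpxm2 was 1.64-fold and 1500015O10Rik 1.46-fold higher. Nppc was at 45.3 and 40.4 CPM, a ratio of 1.12 (0.8001 to 1.54), and Aard was at 26.6 CPM in both, a ratio of 1.001 (0.639 to 1.51). Scx itself differed 168-fold between these cells, and Tnmd 5.42-fold.

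The 1903 Scx-low cells of the mutant library are the largest class of that library, and all 9 members were at least 2-fold lower there than in wild-type Scx-high cells, where 5.64% of all genes compared were. This too was known at the choice. Tdh was 65.7-fold lower, Avp 45.9-fold, Angptl7 38.1-fold, Ooep 27.0-fold and Cgref1 14.7-fold. 1500015O10Rik was 7.65-fold lower at 964 CPM, Aard 7.14-fold, Cpxm2 5.55-fold at 116 CPM and Nppc 3.25-fold (2.79 to 3.79) at 40.4 CPM. 1500015O10Rik still had a UMI in 58.2% of these cells with up to 47 in a cell, while haemoglobin-rich cells of the mutant library had it in 1.27% at a median of 4451 UMIs against 2836. The red blood list took 971440 CPM of those haemoglobin-rich cells, so few of their UMIs could be of other genes. Immune, mural and neural cells of the mutant library had 1500015O10Rik in 7.69%, 10.3% and 21.0%, and its endothelial and muscle cells had no UMI of it. Whether free RNA accounts for 1500015O10Rik in the mutant Scx-low cells was not tested. Avp was found in 0.315% and Tdh in 0.368% of mutant Scx-low cells, with 7 UMIs each. The 79 haemoglobin-rich cells held 0 of either, which allows a share of up to 4.56%, too high to place such values. For each 1000 Scx UMIs, Avp and Tdh each had 7.01 UMIs in mutant Scx-low cells (2.81 to 14.5), against 0.0345 (0.000873 to 0.192) and 0.483 (0.264 to 0.810) in mutant Scx-high cells. Here too the ratio to Scx is raised in cells picked for few Scx UMIs, so it does not place these values either.

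The mutant Scx-low cells were also set beside the wild-type Scx-low cells. Of the 9 members, 5 had enough UMIs, and 0 of these were at least 2-fold lower, where 4.29% of all genes compared were, so the count says little. This comparison was added after the data were seen. Nppc was 2.99-fold higher in the mutant cells (2.11 to 4.35), with 40.4 against 13.5 CPM. Cpxm2 was 1.68-fold higher (1.43 to 1.99) and 1500015O10Rik 1.195-fold (1.14 to 1.26), while Aard had a ratio of 0.645 (0.503 to 0.829) and Cgref1 of 0.682 (0.549 to 0.850). Both Scx-low classes held peritenon fibroblast markers, 10331 CPM in wild-type and 7692 CPM in mutant cells over 7 genes, and which cells of the mutant class once expressed Scx cannot be told apart from the others here.

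In both Scx-low classes 1500015O10Rik and Cpxm2 were found more often in cells with Tnmd. 1500015O10Rik was found in 70.2% of mutant Scx-low cells with Tnmd (66.5 to 73.6) and 37.2% of those without it (34.3 to 40.3), and in the wild-type Scx-low cells in 68.6% (62.1 to 74.6) and 37.4% (33.0 to 42.0). Cpxm2 was found in 24.8% and 11.0% of the mutant cells, and in 22.1% and 5.03% of the wild-type cells. Cgref1 was found in 6.70% (4.91 to 8.89) and 2.46% (1.60 to 3.61) of the mutant cells, but in the wild-type cells its shares of 7.52% (4.44 to 11.8) and 5.25% (3.39 to 7.71) had overlapping intervals. In mutant Scx-low cells with 50 to 100 Tnmd UMIs per 10000, 74 cells, Cgref1 stood at 157 CPM (112 to 212) against 20.1 CPM in the 1002 cells with no Tnmd UMI, and Angptl7 at 42.0 CPM (21.0 to 75.1) against 4.77 CPM. All mutant Scx-low cells together held 42 UMIs of Angptl7 in 14 of 1903 cells, with up to 10 in a cell. Its value in the 74 cells can thus rest on a few cells, which the interval does not cover. Nppc was found in 5.94% (4.25 to 8.03) of mutant Scx-low cells with Tnmd and 3.65% (2.58 to 4.99) of those without it, with overlapping intervals.

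Among the relatives of the members, 41 genes listed by family or pathway, 14 reached 20 CPM in the Scx-high cells of either library. Of these, 3 were at least 2-fold lower in the mutant cells, 1 was at least 2-fold higher and 10 were within 2-fold. Under another minimum, 4.23% of all genes compared were at least 2-fold lower. Oxt, Npr1 and Angptl4 reached 20 CPM in only 1 of the 2 classes. The minimum itself thus favours such differences, and nothing is read from these counts. Cpxm1, the gene closest to Cpxm2 in kind, was at 64.3 CPM in wild-type and 105 CPM in mutant cells, and Aebp1 was at 699 and 843 CPM. Cpz, a metallocarboxypeptidase gene, was at 664 and 58.1 CPM, a ratio of 0.0875 (0.0665 to 0.113), lower than that of Cpxm2 at 0.295. Angptl2 was at 693 and 743 CPM and Angptl1 at 372 and 309 CPM, whereas Angptl4, which encodes an inhibitor of lipoprotein lipase, was at 4.58 and 63.0 CPM. The low level of Angptl7 was thus not shared by the angiopoietin-like genes measured beside it.

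Oxt was the relative most like its member. It had 126 UMIs in wild-type Scx-high cells (26.2 CPM, in 9.27% of cells), 0 in wild-type Scx-low cells and 1 in each Scx class of the mutant library. Avp was found in 24.3% of the 107 cells with Oxt and in 18.5% of all wild-type Scx-high cells, 26 cells holding both. These shares are from unthinned cells and carry no interval, so no co-expression is read from them. Of the receptors for both hormones, Avpr1a had 74 UMIs in 66 mutant Scx-low cells (12.6 CPM) and 18 UMIs in wild-type Scx-low cells (6.57 CPM). It had 4 UMIs in each Scx-high class, which is 0.833 CPM in wild-type and 3.94 CPM in mutant cells. Avpr1b and Avpr2 had no UMI in the 4 Scx classes, and Oxtr had 1 UMI. Of the receptors of the peptide made from Nppc, Npr2 was at 17.9 CPM in wild-type and 11.8 CPM in mutant Scx-high cells, a ratio of 0.660 (0.328 to 1.21). Npr3 was at 2.92 and 2.96 CPM. Npr1, which is instead the receptor of the atrial and brain peptides, was at 24.4 and 4.93 CPM. Gcat, the enzyme that acts after Tdh on threonine, was at 32.9 and 23.6 CPM. Of the 5 listed genes of the oocyte complex beside Ooep, only Zbed3 reached 20 CPM in one of these classes, at 22.5 and 33.5 CPM.

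**Figure D5:**
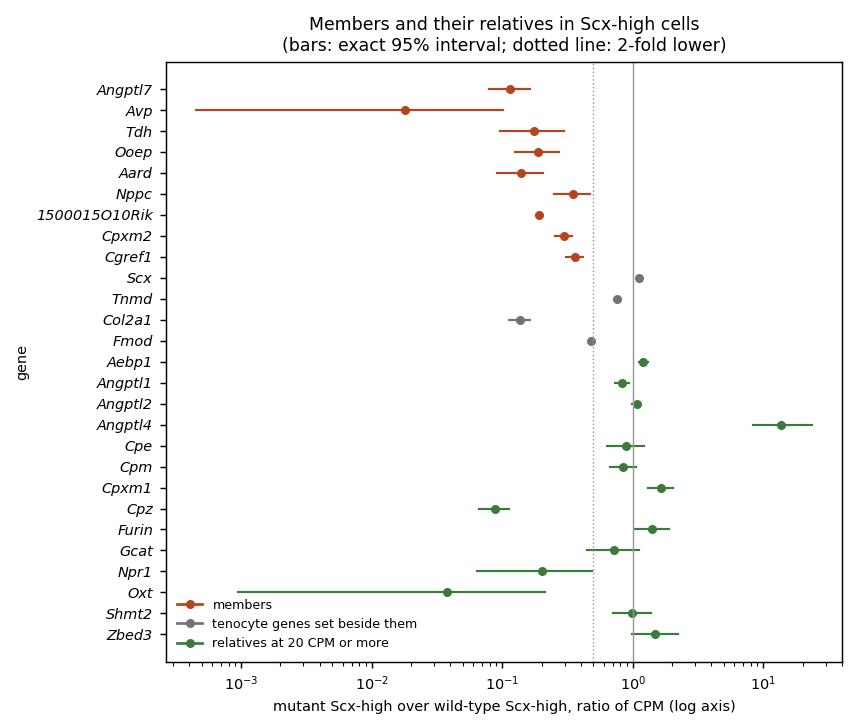
Ratio of CPM between mutant and wild-type Scx-high cells on a log axis for the 9 members, for Scx, Tnmd, Col2a1 and Fmod, and for the relatives at 20 CPM or more, with exact 95% intervals of counting error. All 9 members and their intervals lie left of the dotted line at 2-fold lower, as do Col2a1, Fmod, Oxt, Cpz and Npr1. Cpxm1, Aebp1, Angptl2 and Scx lie at or above 1.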

How the data were processed

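The authors made the deposited counts, whole-number UMI counts per gene and cell without normalization, by running Cell Ranger on 10x Genomics 3′ libraries against mm10. The submitters' processing notes name version 1.2.0 and the paper's methods another, and the deposited matrices name none. All barcodes of both libraries (1 per group) were used. Members, gene lists and alternatives were chosen with earlier results of these data known. The genes named are the 9 members, Scx, Tnmd, Col2a1, Fmod and Tgfbr2, the 5 most alike genes of a member and the listed relatives at 20 CPM or more. Col11a1, Acan and, among relatives under 20 CPM, Npr2, Npr3, Oxtr and the Avp receptors, and the overlapping genes Mtor and Fgfr2, were named after their values were seen.

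Cells with over 50% haemoglobin UMIs, and then cells with at least 3 UMIs over at least 2 genes of an immune, endothelial, mural, neural or muscle list, were set apart. The rest were split at 30 Scx UMIs per 10000. UMIs were summed per class. Ratios of CPM have exact conditional 95% intervals, levels exact Poisson and shares exact Clopper-Pearson intervals, which cover counting error only. Background shares use genes averaging 0.05 UMI per cell or more over both classes. To set shares at equal depth, cells were thinned to 1585 UMIs (the 10th percentile over the Scx classes), which left out 91, 58, 21 and 231 cells of the wild-type Scx-high and Scx-low and mutant Scx-high and Scx-low classes. Doublets stayed in the main values. Scrublet called 1.10% of wild-type and 0.309% of mutant cells at an expected rate of 2%. Counts simulated for mutant over wild-type Scx-high cells with 6639 genes were drawn from Poisson distributions, which these intervals assume. There 95.9% of intervals held the true ratio, which checks the computation only. Uneven spread over cells, as for 1500015O10Rik, Angptl7 and Nppc, was not simulated, and the intervals do not cover it. In thinned mutant Scx-high cells the variance over the mean of these genes was 3.51, 2.41 and 2.21. Gene positions are from GENCODE M21. Python 3.11.15, NumPy 2.4.6, SciPy 1.17.1, scikit-learn 1.9.0 and Scanpy 1.11.5 were used.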

Additional observations from a re-analysis of the deposited data

Results flagged for a closer look

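Avp was 50.1-fold higher in Scx-high than in Scx-low cells of the wild-type library, whereas in the mutant library the ratio was 0.826 with a counting interval of 0.0183 to 6.43, which rests on 1 and 7 UMIs. At this depth the mutant library shows no direction for Avp, and the difference between the libraries was not tested.

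Some cells set apart by markers of other types held more of a member than the Scx-low cells of their library. Angptl7 stood at 38.6 CPM in the 193 immune cells of the wild-type library against 8.75 CPM in its Scx-low cells, with 18 of 20 UMIs in 1 cell. In the mutant library Angptl7 stood at 172 CPM in the 29 endothelial cells, all 19 UMIs in 1 cell, against 7.15 CPM. Nppc stood at 743 CPM in the 3 neural cells and at 391 CPM in the 5 muscle cells of the wild-type library against 13.5 CPM, with 7 and 6 UMIs in 1 cell each. Of these 4 cells, Scrublet called 1 a doublet, the endothelial cell, which had no Scx UMI. The immune cell held 233 Scx UMIs per 10000 and was not called.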

How the results depend on the processing

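Without thinning, a member was found at the median in 39.5% of wild-type Scx-high, 3.10% of wild-type Scx-low, 10.05% of mutant Scx-high and 6.41% of mutant Scx-low cells, and with cells thinned in 17.5%, 1.61%, 3.03% and 3.71%. With a minimum mean of 0.5 UMI only 4 members could be compared in the first 3 comparisons, in which 4, 4 and 4 were past 2-fold. At that minimum 0 were 2-fold higher in mutant Scx-high than in mutant Scx-low cells. The share of all genes past 2-fold was not counted at that minimum, so nothing is read from these counts. The other counts stayed within 1.5 times the value reported under a Scx limit of 10 or 60, no gates and the filter on cells. They also did so with doublets removed, equal weight per cell, the 20 most abundant genes left out, centring and the largest K-means cluster. The share of all genes past 2-fold was not counted under these settings. The first 3 comparisons repeat the choice of the members, so their counts are descriptions only. Of 428 member ratios recomputed, 346 stayed within the interval reported, 82 moved outside it and 0 that were past 2-fold turned direction. With the largest K-means cluster in place of Scx-high, Tdh stood at 0.00880 of wild type and Cgref1 at 0.0321, since 1453 of the 1509 cells of that mutant cluster are Scx-low. K-means was not run for comparisons within a library. No paired analysis was possible because each group is 1 library. Depth limits Avp and Tdh most, with 1 and 14 UMIs in mutant Scx-high cells. Each library is 1 pool, so pups, library and genotype cannot be told apart.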
